A study of Homo sapiens with 4 samples.

Results

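The comparison described here is that of 5-azacytidine with no 5-azacytidine in human neurons with a TDP-43 knockdown. It rests on 2 of the study's 4 long-read libraries, the one labelled TDP-43 knockdown and the one labelled TDP-43 knockdown with azacytidine. The members were chosen by those labels alone. The neurons came from the KOLF2.1J induced pluripotent stem cell line, an established line. The derivative used carries a constitutive dCas9-BFP-KRAB repressor for CRISPR interference and an NGN2 gene under a doxycycline-inducible promoter. All 4 groups share this background, the doxycycline and puromycin selection. The knockdown groups received a lentiviral guide against TDP-43 before differentiation, and the other groups a non-targeting (NT) guide. Both were kept as selected pools, not as single clones. Treated cultures received 5 µM 5-azacytidine for 72 hours after plating of the young neurons. Each group has 1 library, titled replicate 1, so the differences below have no replicate check, and each test compares the reads of libraries, not the conditions. The other pair of libraries, azacytidine against control with the non-targeting guide, shares no library with the knockdown pair and is given beside it.

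5-azacytidine is a cytidine analogue that is phosphorylated in cells and built into RNA and, after reduction, into DNA. In DNA it traps DNA methyltransferases, so that methylation is lost as strands are copied. NGN2 drives stem cells quickly into a postmitotic neuronal state, and cultures of such neurons can retain cycling progenitor-like cells. TDP-43 is an RNA-binding protein that keeps unannotated (cryptic) exons out of messenger RNA, and loss of TDP-43 exposes such exons in transcripts including STMN2 and UNC13A. The integrated stress response is the program in which stress kinases slow translation and the transcription factor ATF4 raises amino acid and tRNA charging genes.

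Promoter sequences are shown first for 2 groups of genes that moved in opposite directions, mitosis genes that were lower with azacytidine and stress response genes that were higher. They are from RefSeq, build GRCh38.p14, and lie within the 250 bases before a start site. Mitosis promoters are known for a cell cycle element, TTTGAA, and for the CCAAT box, bound by NF-Y. In the stretches below, written 5′ to 3′ on the gene's strand, capitals mark matches to TTTGAA or CCAAT on either strand, so that TTCAAA and ATTGG are reverse matches. CDK1, the main mitotic kinase, is at chr10:60778380-60778477 (plus strand). TOP2A, the topoisomerase that untangles sister DNA, is at chr17:40417921-40418146 (minus strand). ASPM, a spindle pole protein, is at chr1:197146670-197146823 (minus strand). MKI67, which encodes the proliferation antigen Ki-67, is at chr10:128126424-128126541 (minus strand), where a forward TTTGAA and a reverse CCAAT match overlap.
CDK1: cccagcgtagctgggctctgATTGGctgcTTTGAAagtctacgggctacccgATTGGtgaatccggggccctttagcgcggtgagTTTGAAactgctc
TOP2A: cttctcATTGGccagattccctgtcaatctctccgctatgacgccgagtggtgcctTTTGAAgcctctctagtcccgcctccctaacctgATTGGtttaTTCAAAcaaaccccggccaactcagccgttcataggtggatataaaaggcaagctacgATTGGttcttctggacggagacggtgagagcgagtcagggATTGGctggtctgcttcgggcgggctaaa
ASPM: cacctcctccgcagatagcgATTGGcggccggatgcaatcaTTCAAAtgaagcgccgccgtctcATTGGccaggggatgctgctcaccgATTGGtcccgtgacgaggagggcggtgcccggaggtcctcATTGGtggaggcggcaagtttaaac
MKI67: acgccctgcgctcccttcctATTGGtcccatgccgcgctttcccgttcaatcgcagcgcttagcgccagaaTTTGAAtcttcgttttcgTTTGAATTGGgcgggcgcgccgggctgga

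Of the 34 mitosis genes with enough reads to test, 29 had an entry, with 33 promoter windows between them. TTTGAA lay in 20 of the 33 windows (60.6%), against 9.31% of the 10361 windows of all genes tested and 13.3% of all 35116 windows of that length. CCAAT lay in 21 of the 33 (63.6%), against 32.5% and 32.0%. Genes of DNA replication held CCAAT in 22 of 36 windows (61.1%) and TTTGAA in 2 of 36 (5.56%). The window of MELK, a gene of proliferating cells described below, held neither. A match to letters is a description of the window and does not show that a factor binds there.

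For the stress response genes, the search was for the letters TGATGNAAN on either strand, the form of the element that ATF4 binds together with a C/EBP partner. Capitals mark the match, which is reversed in AARS1, GARS1 and HERPUD1. ASNS, asparagine synthetase, is at chr7:97872448-97872496 (minus strand). AARS1, alanyl-tRNA synthetase, is at chr16:70289666-70289714 (minus strand). GARS1, glycyl-tRNA synthetase, is at chr7:30594824-30594872 (plus strand). HERPUD1, a component of degradation at the endoplasmic reticulum, is at chr16:56931945-56931993 (plus strand).
ASNS: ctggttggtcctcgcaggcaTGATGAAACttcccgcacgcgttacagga
AARS1: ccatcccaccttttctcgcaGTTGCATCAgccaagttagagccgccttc
GARS1: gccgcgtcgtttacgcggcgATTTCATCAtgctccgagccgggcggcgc
HERPUD1: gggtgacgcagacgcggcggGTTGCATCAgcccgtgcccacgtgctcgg

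The element lay in 5 of 34 windows (14.7%) of the tested stress response genes, namely those of AARS1, ASNS, CEBPG, GARS1 and IARS1. It lay in 1.71% of the windows of all genes tested and 3.13% of all windows. Among the stress response genes called higher it lay in 3 of 24 windows (12.5%), those of AARS1, ASNS and GARS1. Over all genes called higher the share was 0.98%, and over all genes called lower 2.58%. HERPUD1 belongs to the unfolded protein response list and is not among these 34 windows. The windows of ATF5 and TRIB3, both described below, held no match.

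The knockdown library held 767621 reads assigned to genes and the library with azacytidine added 477622. The NT pair held 595158 without and 466337 with azacytidine. The libraries differ in more than depth. The knockdown library without azacytidine had the lowest share of full-length reads among its transcript reads, 23.3%, against 28.2% to 35.7% in the other 3 libraries, and the lowest trimmed-mean (TMM) scaling factor, 0.893. Effective library sizes after scaling were 685301 without and 484696 with azacytidine, and ratios below are relative to these. A ratio is the level with azacytidine over that without, on a log2 scale with 0.5 reads added, and brackets give its exact 95% Clopper-Pearson interval, which covers counting error only. Amplified molecules are not independent, so the true error is larger. A gene was called when the two-sided exact binomial test passed an adjusted p of 0.05 (Benjamini-Hochberg over the 8289 genes whose mean in the pair reached 20 reads) and the ratio was at least 1 in size.

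TARDBP, the gene of TDP-43 (chr1:11012344-11030528, hg38), had 72 reads in the knockdown library and 43 with azacytidine added, against 104 and 73 in the NT pair. The ratio in the knockdown pair was -0.24 [-0.82, 0.32], with an adjusted p of 0.525 in the exact binomial test. TARDBP was therefore not called, and the interval includes both a modest loss and a modest gain.

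In the knockdown pair, 781 genes were higher with azacytidine (9.42% of the 8289 tested) and 1467 were lower (17.7%). In the NT pair the same rule called 514 of these genes higher (6.2%) and 824 lower (9.94%). Of the 781 higher genes, 227 were also called higher in the NT pair. Of the 1467 lower genes, 576 were also called lower there, which is 69.9% of the NT pair's lower calls. The losses were also the deeper changes: 258 lower genes passed 8-fold, against 13 higher genes. The share of lower genes among all calls was 65.3%. It was 51.8% when the libraries were scaled by total counts, which moved the median ratio of all genes from -0.11 to 0.07.

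The genes called lower with the interval farthest from 0 are described first. KITLG, the ligand of the KIT receptor (chr12:88492793-88580851), had 230 reads without and 0 with azacytidine, so that it was at least 54.2-fold lower at a floor of 3 reads. PLAGL1, an imprinted zinc finger gene (chr6:143940300-144064599), went from 172 reads to 0 and was at least 40.6-fold lower. COL4A6, a basement membrane collagen on the X chromosome, went from 114 reads to 0 and was at least 26.9-fold lower. Its head-to-head neighbour COL4A5 went from 165 reads to 1. In the NT pair KITLG went from 63 reads to 0, PLAGL1 from 59 to 2, COL4A6 from 103 to 0 and COL4A5 from 76 to 0. For these 4 genes both treated libraries lay near 0 and both untreated libraries well above. PAX6, the transcription factor of cortical radial glia (chr11:31784779-31817961), fell from 313 reads to 4, a ratio of -5.62 [-7.68, -4.42]. FGFR2, a fibroblast growth factor receptor, fell from 217 to 3 and PTPRZ1, a radial glial receptor phosphatase, from 359 to 6. VCAN, the matrix proteoglycan versican, fell from 438 to 7, and MELK, a kinase of proliferating cells, from 174 to 1. BARD1, a ubiquitin ligase subunit of DNA repair, went from 111 reads to 0 in the knockdown pair and from 64 to 17 in the NT pair.

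The largest gains were smaller in fold and included stress response genes. BCAS4 had 0 reads without and 58 with azacytidine, at least 27.3-fold higher at the floor of 3 reads, against 5 and 21 in the NT pair. CLMP, a cell adhesion molecule, rose from 10 reads to 83, a ratio of 3.49 [2.60, 4.67], and from 9 to 47 in the NT pair. ATF5, a transcription factor of the integrated stress response, rose from 7 to 60, and TRIB3, a pseudokinase induced by ATF4, from 5 to 37. VWA5B2 rose from 9 reads to 55, BEGAIN, a postsynaptic density protein, from 10 to 59, and EXO5, a DNA exonuclease, from 18 to 92. KIAA0408 rose from 10 reads to 117 in the knockdown pair, where the NT pair had 88 and 110. A gene that overlaps it on the same strand, ENSG00000255330, had 237 reads without and 84 with azacytidine in the knockdown pair, and how reads were divided between the 2 genes is uncertain. ZGPAT, which rose from 5 to 38, and JPT1, from 8 to 50, likewise overlap another gene on their strand and are uncertain.

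**Figure D1:**
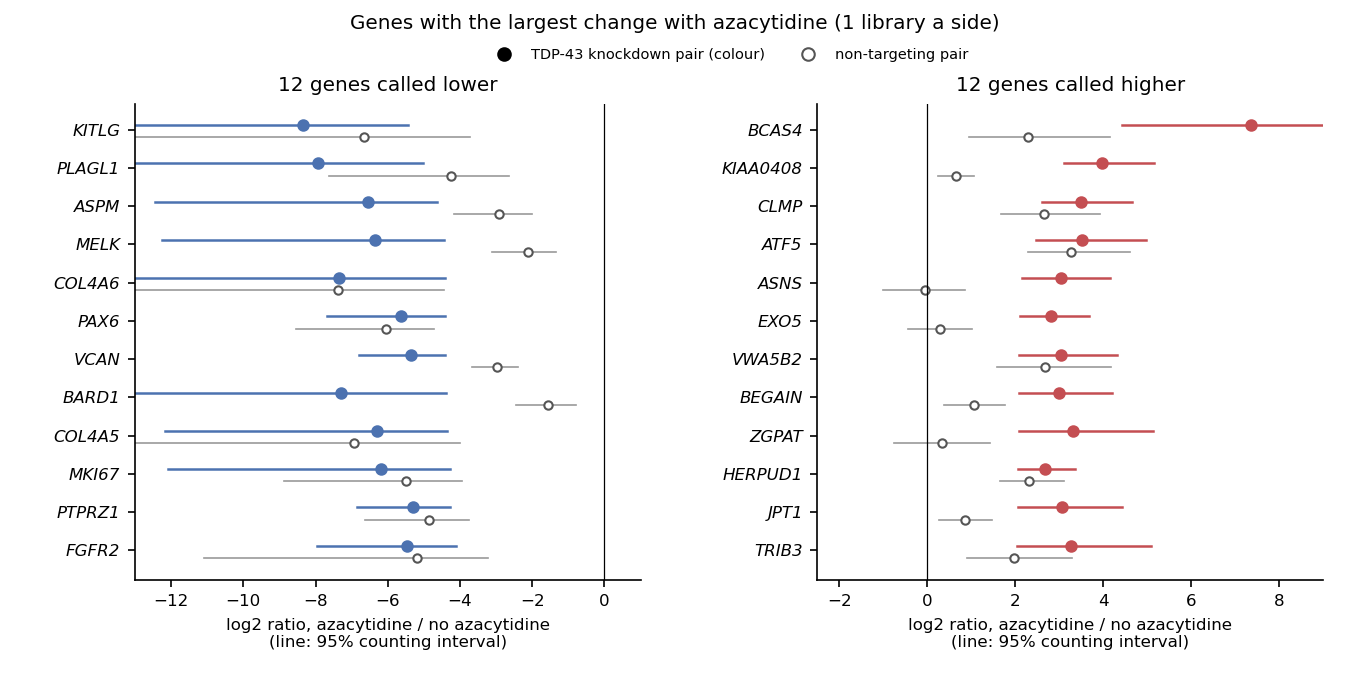
Log2 ratio (x axis) of the 12 genes called lower and the 12 called higher whose intervals lie farthest from 0 in the knockdown pair (filled points), with the same genes in the NT pair (open points). Lines are 95% counting intervals, and a line that reaches the edge of an axis has no bound on that side. The 12 lower genes lie left of 0 in both pairs, whereas ASNS lies near 0 in the NT pair.

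Genes of mitosis were lower with azacytidine almost without exception. Of the 34 members tested, 33 were called lower and none higher, against 17.7% and 9.42% of all genes. Their median ratio was -3.22, against -0.11 over all genes tested. The medians of the pathway lists given here are the same when genes with 0 reads are set to their floor of 3 reads. The only member not called was SMC2, a condensin subunit, with 164 reads without and 59 with azacytidine and a ratio of -0.97. MKI67 fell from 154 reads to 1, TOP2A from 133 to 2, and ASPM from 198 to 1. Among the motors and kinetochore proteins, CENPE fell from 133 to 2, CENPF from 208 to 6 and KIF11 from 112 to 4. CDK1 went from 53 reads to 0, at least 12.5-fold lower. The cyclins CCNA2 (46 to 4) and CCNB1 (34 to 7) fell less. The smallest called losses included the kinase AURKA, which went from 38 to 12 reads, a ratio of -1.12 [-2.24, -0.20] (exact binomial test, adjusted p = 0.035). With the NT guide 33 of the 34 were called lower too, with a median of -2.76. Only 1 member differed between the guides by the test of the difference, ASPM (198 to 1, against 90 to 9 in the NT pair). An additive edgeR quasi-likelihood model over the 4 libraries, in which guide and azacytidine act independently, called 31 of the 34.

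DNA replication and repair genes followed with more spread. Of 33 tested, 20 were lower and 1 was higher, against 17.7% and 9.42% of all genes, and the median was -1.33. With the NT guide 23 of the 33 were lower and none higher, with a median of -1.49. UHRF1, which guides maintenance methylation to replicating DNA, fell from 147 reads to 2, a ratio of -5.38 [-8.76, -3.82]. RRM2, the small subunit of ribonucleotide reductase made in S phase, fell from 86 to 2, MCM10 from 92 to 1 and the checkpoint adaptor CLSPN from 71 to 1. The MCM helicase is a ring of 6 subunits, and 5 of them were called lower. MCM6 fell from 57 reads to 10, MCM3 from 125 to 28, MCM4 from 115 to 32, MCM2 from 48 to 14 and MCM5 from 37 to 12. MCM7 had 83 and 60 reads, a ratio of 0.03. RFC2, a clamp loader subunit, was the 1 member called higher, with 24 reads without and 44 with azacytidine, a ratio of 1.36 [0.62, 2.16]. With the NT guide it had 34 and 19, and the difference between guides passed its exact test (adjusted p = 0.013).

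Of 22 neural progenitor genes tested, 15 were called lower, against 17.7% of all genes, and none higher, with a median of -2.14. With the NT guide 13 of the 22 were lower and 1 was higher, with a median of -1.38. Several members act in Notch signalling, which keeps progenitors undifferentiated. Lower were the receptors NOTCH1 (50 reads to 4), NOTCH2 (69 to 1) and NOTCH3 (53 to 0), and the ligands JAG1 (188 to 9) and DLL1 (70 to 12). The transcription factors GLI3 (222 to 6) and OTX2 (72 to 7) and the intermediate filament gene VIM (51 to 7) were lower. SOX2, a core progenitor factor, went from 35 reads to 8, a ratio of -1.56 [-2.95, -0.50], and had 30 and 18 in the NT pair, where it was not called. Some classic progenitor genes did not pass. NES, the filament protein nestin, had 53 and 42 reads with a ratio of 0.17, and MSI1, an RNA-binding protein, had 101 and 74 with a ratio of 0.05. In these bulk libraries fewer cells of a type and less RNA per cell cannot be told apart.

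Of the 18 extracellular matrix genes tested, 14 were lower and none higher, against 17.7% and 9.42% of all genes, with a median of -2.97. With the NT guide 14 of the 18 were lower and 2 higher, with a median of -2.65. Fibrillins FBN1 (65 reads to 5) and FBN2 (148 to 9), the laminin chain LAMA1 (124 to 10) and fibronectin FN1 (144 to 14) fell. COL5A1 (41 reads), COL1A1 (40) and THBS1 (40) all had 0 reads with azacytidine. COL4A2, a chain of the most widespread basement membrane collagen, had 60 and 58 reads with a ratio of 0.45, whereas the NT pair had 45 and 14. The additive edgeR model called 14 progenitor genes and 11 matrix genes lower.

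**Figure D2:**
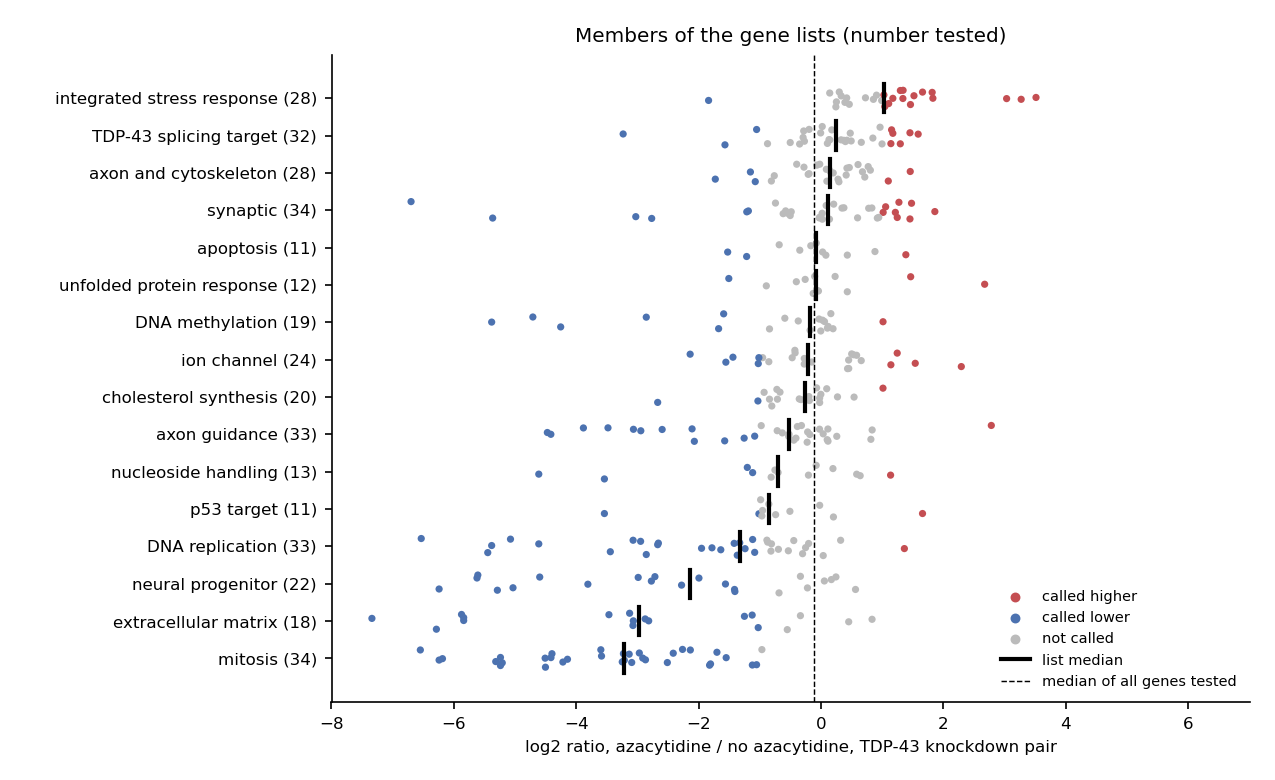
Log2 ratio (x axis) in the knockdown pair for each tested member of 16 gene lists, with the number tested in parentheses. Black bars are list medians and the dashed line is the median of all genes tested. The mitosis list lies lowest, at a median of -3.22, and the integrated stress response list highest, at 1.03.

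The integrated stress response moved the other way. Of 28 members tested, 15 were higher and 1 lower, with a median of 1.03, against the 9.42% higher and 17.7% lower among all genes. With the NT guide 11 of the 28 were higher and none lower, with a median of 0.83. The transcriptional regulator ATF5 rose from 7 reads to 60, a ratio of 3.51 [2.47, 4.97]. With the NT guide it rose from 8 to 65, so the treated libraries of both guides held about the same level. Sestrin SESN2 rose from 19 to 43. The key regulators ATF4 (7 and 11 reads) and DDIT3 (4 and 8) had too few reads to test. ATF5 kept its call in the additive edgeR and DESeq2 models. AARS1, ASNS and PHGDH, described below, lost theirs in both. These models give an azacytidine ratio shared by both guides, not that of the knockdown pair. For a gene whose ratio differed between the guides, such as ASNS, they are no check of the knockdown pair. Over all genes, the 781 higher calls became 208 in the edgeR model and 33 in that of DESeq2.

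Within the response, the tRNA synthetases were the largest set of members. Of 11 tested, 7 were called higher, against 9.42% of all genes. They included WARS1 (60 reads to 122), MARS1 (114 to 204), GARS1 (43 to 75) and AARS1 (82 to 131). The 4 others had ratios between 0.25 and 0.46. Both chains of the large neutral amino acid transporter rose, SLC7A5 from 46 reads to 90 and SLC3A2 from 40 to 72. In serine and one-carbon metabolism, PHGDH rose from 28 to 71 and SHMT2 from 21 to 53, while MTHFD2, with 44 and 62 reads, had a ratio of 0.99 and was not called.

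The test of the difference between guides separated 3 members. ASNS rose from 11 reads to 66, a ratio of 3.03 [2.15, 4.16], whereas the NT pair had 25 and 19 (difference 3.09, exact test, adjusted p = 3.3e-05). ASNS overlaps another gene on its strand, ENSG00000284707, which had 63 and 55 reads in the knockdown pair, so the division of reads between them is uncertain. XPOT, the exportin of tRNA, fell from 88 reads to 17, whereas the NT pair had 82 and 76. CEBPG, a dimer partner of ATF4, had 54 and 42 reads, whereas it rose from 32 to 72 in the NT pair.

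The unfolded protein response of the endoplasmic reticulum did not follow as a list. Of 12 tested, 2 were higher and 1 lower, against 9.42% and 17.7% of all genes, with a median of -0.08. HERPUD1 rose from 26 reads to 119, a ratio of 2.67 [2.07, 3.37], and SYVN1, the ubiquitin ligase of the same degradation complex, rose from 30 to 59. Its partner SEL1L fell from 94 to 23. HSPA5, the main chaperone of the compartment, had 93 and 61 reads with a ratio of -0.10.

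**Figure D3:**
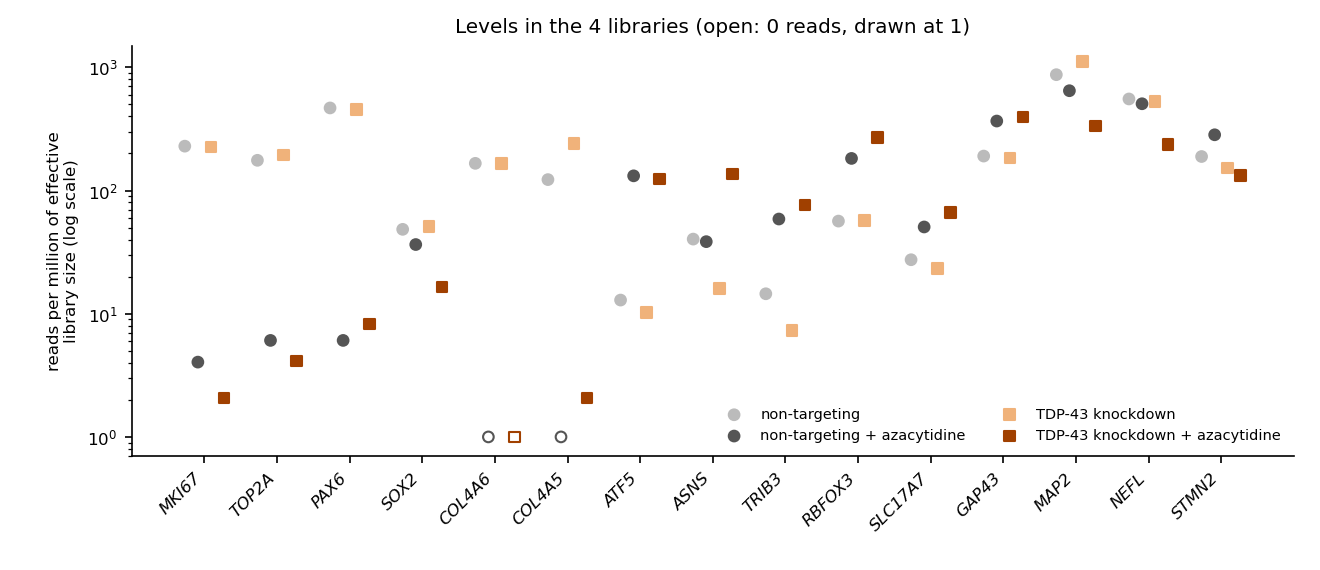
Reads scaled by effective library size, as CPM (y axis, log scale) of 15 genes in the 4 libraries. Circles are the NT guide, squares the TDP-43 knockdown, dark symbols azacytidine, and open symbols 0 reads drawn at 1. Each gene is to be compared across libraries only, since genes differ in length. MKI67, TOP2A and PAX6 are low in both treated libraries, ATF5 and RBFOX3 are high in both, and ASNS is high in the knockdown library with azacytidine alone.

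Markers were used to check the label of cortical neurons. General neuronal markers had summed levels of 3963 CPM (reads scaled by the effective library size) without and 3280 CPM with azacytidine. In the NT pair the sum moved the other way, from 3473 to 4021 CPM. Of the 13 tested, 2 were called higher and 2 lower, against 9.42% and 17.7% of all genes. RBFOX3, which encodes the nuclear antigen NeuN of mature neurons, rose from 39 reads to 131, a ratio of 2.23 [1.72, 2.80], and GAP43, a growth cone protein, from 126 to 191. The GAP43 call was lost with a length trend removed (0.69) and in the additive DESeq2 model (adjusted p = 0.16). MAP2, the dendritic microtubule protein, fell from 761 to 162 and NEFL, a neurofilament chain, from 360 to 114. MAP2 alone held 761 of the 2716 summed reads without and 162 of the 1590 with azacytidine. Its fall in CPM exceeded that of the sum, so the sum does not show a general fall of the 13 markers. Their median ratio was -0.07. Of 7 cortical glutamatergic markers tested, 2 were higher and 2 lower, against the same shares of all genes, with a median of -0.55. NEUROD2 (12 reads to 37) and the vesicular transporter SLC17A7 (16 to 32) rose, while POU3F2 (123 to 43) fell. The lowest ratio among the 7 was -3.78, in another member. Several defining cortical genes were scarce or absent. EMX2 had 36 reads without and 0 with azacytidine, TBR1 18 and 7, and NEUROD6 had 0 in both.

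Markers of other cell types were summed in the same way. The summed level of progenitor markers went from 1593 to 390 CPM in the knockdown pair and from 1397 to 382 in the NT pair. In the knockdown pair 5 of 8 tested members were lower, against 17.7% of all genes. Neural crest and mesenchyme markers went from 217 to 26.8 CPM, peripheral and sensory neuron markers from 1115 to 584 and pluripotency markers from 727 to 532. NANOG, POU5F1 and TDGF1 had 0 reads in both libraries of the pair. Inhibitory neuron markers stood at 13.1 and 30.9 CPM, with DLX1, DLX2, DLX5, GAD2, NPY and SST at 0. Astrocyte markers stood at 215 and 116 CPM, oligodendrocyte lineage markers at 153 and 118, endothelial markers at 73.0 and 26.8 and microglial markers at 5.84 and 6.19. The part of these cell types in the losses of mitosis, progenitor and matrix genes was not tested.

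Of 34 synaptic genes tested, 8 were higher, against 9.42% of all genes, and 6 lower, near the 17.7% of all genes, with a median of 0.11. The higher genes included complexin CPLX1 (11 reads to 29), synapsin SYN3 (38 to 64), the kinase subunit CAMK2B (38 to 74) and the scaffold DLG4, or PSD-95 (170 to 243, a ratio of 1.01 at the limit). Among the lower genes, NRXN3, a presynaptic adhesion protein, went from 73 reads to 0. The glutamate receptor subunit GRIA1 fell from 87 to 1, a ratio of -5.37 [-11.26, -3.43], GRIK2 from 101 to 31, and the scaffold DLG2 from 86 to 7. With the NT guide GRIA1 had 36 and 14. The difference between guides passed for GRIA1 (-4.36, exact test, adjusted p = 0.00023), DLG2 and GRIK2.

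Axon and cytoskeleton genes were mostly not called, with 2 higher and 3 lower of 28 tested and a median of 0.14. Of all genes, 9.42% were higher and 17.7% lower. MAP2 had a ratio of -1.73 [-1.99, -1.49] in the knockdown pair and -0.43 in the NT pair, where it had 540 and 319 reads. NEFL had -1.15 (-0.97 under total counts) against -0.13 with 343 and 250 NT reads. Both differences between guides passed the exact test (adjusted p = 7.8e-14 for MAP2 and 8.1e-06 for NEFL). STMN2, a tubulin regulator and a main target of TDP-43, had 104 and 64 reads with a ratio of -0.20 [-0.67, 0.26].

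Of 33 axon guidance genes tested, 12 were lower and 1 higher, against 17.7% and 9.42% of all genes, with a median of -0.52. EPHA7, an ephrin receptor, fell from 256 reads to 8, and the related EPHA3 (78 to 2) and EPHA5 (103 to 9) also fell. The repellent SLIT2 fell from 323 to 15, and its receptor ROBO1 from 562 to 133. The netrin receptor DCC fell from 94 to 15, and the netrin receptor UNC5B rose from 14 to 70. For 10 of the 33 the ratio was lower in the knockdown pair than in the NT pair by the test of the difference, against 6.67% of all genes. The additive edgeR model called 6 axon guidance genes lower.

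Of 24 ion channel genes tested, 4 were higher, against 9.42% of all genes, and 5 lower, near the 17.7% of all genes, with a median of -0.21. KCNMA1, the BK potassium channel, rose from 32 reads to 112, and from 30 to 117 in the NT pair. CACNA1B, the pore of the N-type calcium channel, rose from 101 to 208, whereas the NT pair had 95 and 93. The sodium channel subunits SCN1A (40 to 6), SCN2A (164 to 57) and SCN9A (96 to 33) fell.

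Gene length moved with these calls. The tested genes were divided by span into 4 sets of equal size. In the set with the shortest spans 18.9% were higher and 8.35% lower, and in the set with the longest spans 3.91% were higher and 30.1% lower. The lower genes had a median longest transcript of 5691 bases, the higher genes 3686 and all tested genes 4832. With the NT guide 17.1% of the set with the longest spans was lower. The knockdown library with its low share of full-length reads is the base of every ratio in the pair. The part of library quality in these calls was not tested. A length trend was also removed, fitted on the longest annotated transcript and not on span. With this trend removed, 33 mitosis, 14 progenitor, 13 matrix and 11 axon guidance genes were called lower and 16 stress response genes higher. The part of span in these calls was not tested. Of the 103 named genes, 7 lost their call, among them GAP43 (0.69), MDM2 (-0.83) and TTN (-0.89).

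**Figure D4:**
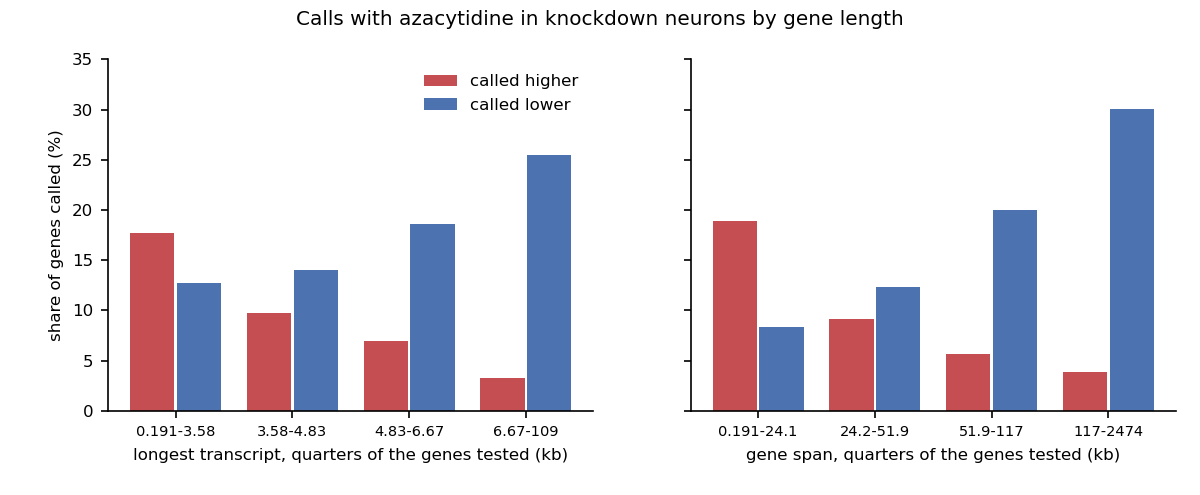
Share of tested genes called higher or lower in the knockdown pair (y axis, %) in 4 equal sets by longest annotated transcript (left) and by gene span (right), in kilobases. Lower calls rise from 8.35% to 30.1% and higher calls fall from 18.9% to 3.91% from the shortest to the longest spans.

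The machinery of DNA methylation, the target of the drug, was mostly not called. DNMT1, the maintenance methyltransferase, had 130 and 81 reads with a ratio of -0.18 [-0.60, 0.23], DNMT3A 109 and 86 with 0.16, and DNMT3B 90 and 66 with 0.06. Of 19 members tested, 6 were lower and 1 higher, against 17.7% and 9.42% of all genes, with a median of -0.18. UHRF1, HELLS (148 reads to 14), CDCA7 (55 to 1) and CDCA7L (40 to 1), 4 genes also active in dividing cells, were lower in both pairs. The demethylating enzymes TET1 (83 to 18) and TET2 (40 to 9) were lower in the knockdown pair, and their ratios differed between the guides by test. MBD1, a reader of methylated DNA, rose from 206 to 294.

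Germline genes that are known to be silenced by DNA methylation were too low to test. None of the 31 listed reached a mean of 20 reads, and together they had 58 reads without and 29 with azacytidine. TDRD1 had 5 reads in the treated knockdown library, 4 in the treated NT library and 0 in both untreated libraries. The 5 interferon-stimulated genes with enough reads had a median of -0.51, and none was called by the exact binomial test with the size limit, while 1 had an unadjusted p under 0.05.

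Genes that handle nucleosides were examined because 5-azacytidine enters cells and is activated through them. The transporter gene SLC29A1 had 49 and 54 reads with a ratio of 0.64 and was not called. Of 13 tested, 1 was higher and 4 were lower, against 9.42% and 17.7% of all genes, with a median of -0.70. UCK1, a uridine-cytidine kinase, rose from 32 to 50, and UCK2 had 46 and 28 with a ratio of -0.21. DCK, deoxycytidine kinase, fell from 37 to 11, a call lost under total counts (exact test, adjusted p = 0.077), and it overlaps MOB1B on its strand. RRM2B, the ribonucleotide reductase subunit induced by p53, fell from 90 reads to 5, whereas the NT pair had 36 and 40 (exact test of the difference, adjusted p = 1.8e-09). Of the 11 p53 targets tested, RRM2B included, 2 were lower and 1 was higher, near the 17.7% and 9.42% of all genes. The p53 inhibitor MDM2 fell from 81 to 28, a ratio of -1.02 that missed the limit under total counts (-0.83), DESeq2 size factors (-0.96) and a pseudocount of 2 (-0.97). CDKN1A, with 16 and 11 reads, was too low to test. Of 11 apoptosis genes, 2 were lower and 1 was higher, again near those shares, with a median of -0.08. APAF1, which forms the apoptosome, fell from 57 to 17 and the survival gene BCL2L1 rose from 55 to 102. Of 20 cholesterol synthesis genes 1 was higher and 2 were lower, against 9.42% and 17.7% of all genes, with a median of -0.26.

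Known TDP-43 targets were examined for level. Of 32 tested, 6 were higher and 3 lower, against 9.42% and 17.7% of all genes, with a median of 0.25. CELF5, an RNA-binding protein of neurons, fell from 86 reads to 6, whereas the NT pair had 68 and 91 (difference -3.98, exact test, adjusted p = 4.8e-13). GPSM2, a spindle orientation protein, fell from 73 to 17. PFKP, a glycolytic enzyme, rose from 36 to 77 and the adhesion protein IGLON5 from 24 to 42. UNC13A, a synaptic vesicle priming protein, had 47 and 43 reads with a ratio of 0.37.

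Unannotated exons, the class to which cryptic exons belong, were compared as the share of a gene's transcript reads that hold them. Of 112 loci tested, 12 in 11 genes were called (10.7%), 9 with a higher share and 3 with a lower share with azacytidine. A call here needed Fisher's exact test at an adjusted p of 0.05 and a change of at least 10 points. SEPTIN11, a cytoskeletal septin and a TDP-43 target, had an internal exon at chr4:77032457-77032553 in 34 of 218 reads (15.6%) without and 39 of 115 (33.9%) with azacytidine. It was in 2 of 163 and 0 of 130 NT reads. A first exon of SEMA3A, a secreted repellent of axons, at chr7:84150200-84150617 was in 4 of 132 reads and then 19 of 53, of which 3 and 16 could be assigned to 1 transcript alone. The NT libraries had it in 7 of 101 and 11 of 32. ZNF423, a zinc finger factor of neural development, had an internal exon at chr16:49640443-49640505 in 4 of 76 reads and then 24 of 42, and in none of 63 and 57 NT reads, but only 1 and 6 reads were unique. NFYA, a subunit of the CCAAT-binding factor NF-Y, had an upstream first exon at chr6:41073209-41073591 in 0 of 49 reads and then 11 of 30, of which 2 were unique. PKNOX1, a homeodomain factor, had its first and last unannotated exon in 31 of 56 reads and then 1 of 25, both from 1 transcript. HIP1, an endocytic adaptor, had its first exon in 58 of 71 and then 16 of 41 reads, of which 5 and 2 were unique, and in 63 of 64 and then 21 of 48 NT reads. The other loci with a higher share were in DCP1B, FAM20B, ELMO2, POLD3 and ENSG00000278730.

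Among the TDP-43 target genes, 10 loci were tested and SEPTIN11 was the one called. The last exon in STMN2 that truncates its transcript was in 12 of 31 transcript reads (38.7%) without and 5 of 18 (27.8%) with azacytidine, against 0 of 80 and 2 of 93 in the NT pair. An internal exon of UBASH3B went from 12 of 49 (24.5%) to 14 of 25 (56.0%), which missed the threshold (Fisher's exact test, adjusted p = 0.0602). The internal exon of EPB41L4A was in 23 of 39 and 19 of 26 reads, that of AARS1 in 12 of 70 and 13 of 99, and that of HDGFL2 in 8 of 20 and 13 of 29. The first exon of CAMK2B was in 11 of 25 and 13 of 45 reads. These loci had reads in both knockdown libraries, and those of UBASH3B, EPB41L4A, AARS1, HDGFL2 and CAMK2B had 0 in both NT libraries. The intervals of most of these shares are wide. A genome sequence was not used here, so exon sequences are not shown.

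**Figure D5:**
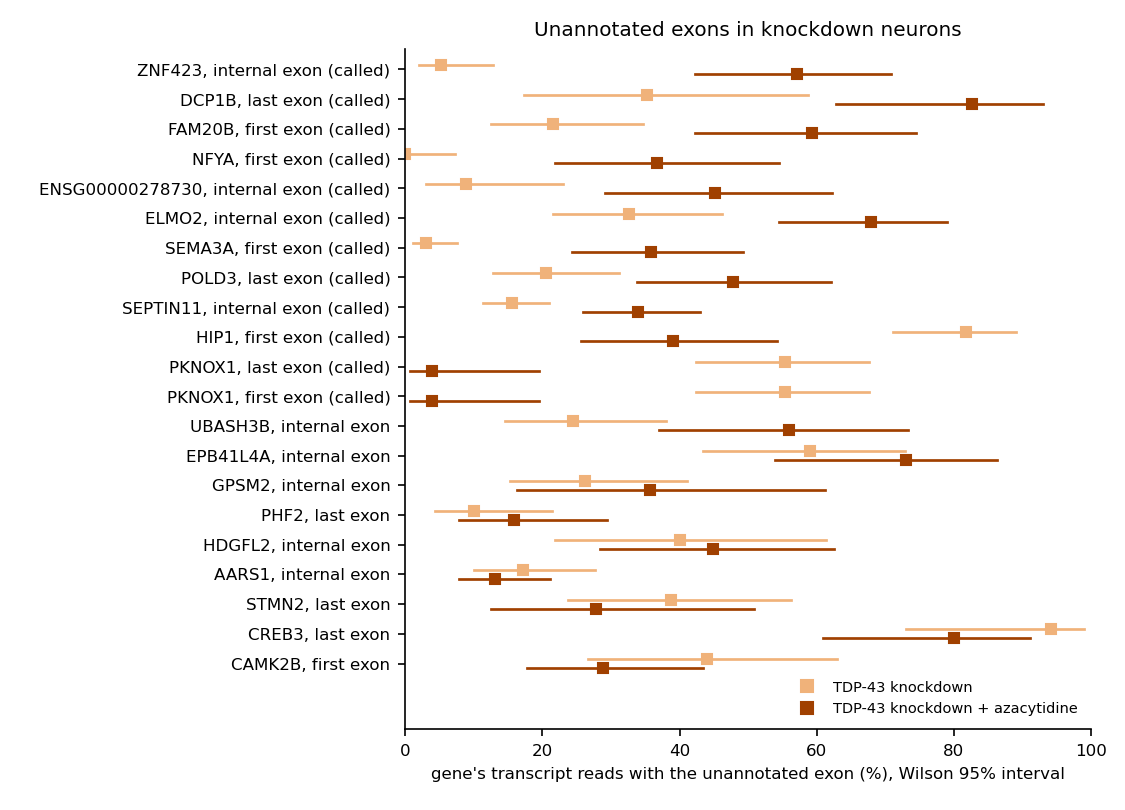
Share of a gene's transcript reads that hold an unannotated exon (x axis, %) in the knockdown library without (light) and with azacytidine (dark), for the called loci and the tested loci of TDP-43 targets. Lines are Wilson 95% intervals. At each called locus the 2 intervals do not overlap, and at each locus not called they do.

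Isoform shares were compared in the same way for all transcripts. Of 11505 transcripts tested, 1074 in 735 genes were called (9.34%), 480 with a higher and 594 with a lower share. Of the 735 genes, 178 were also called in level, a share near that of all tested genes. When transcripts were summed by start site, 618 of 7997 starts were called (7.73%), and summed by end, 366 of 8260 ends (4.43%). In 304 genes 1 transcript gained and another lost share. In each of these genes the transcript that gained most was set beside the one that lost most. Their annotated positions differed in the start alone in 105 genes and in the end alone in 38. They differed in both in 65 and in neither in 96.

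ALDH1L2, a mitochondrial folate enzyme of the stress response, changed its main transcript alike in both pairs. The annotated transcript ENST00000258494.14, with a start at chr12:105084444-105084458, held 0 of 25 reads without and 25 of 27 (92.6%) with azacytidine in the knockdown pair. With the NT guide it held 0 of 9 and 36 of 39 (92.3%). The 2 treated libraries had 1 and 2 unique reads of it. NPAT, a histone gene activator, showed a shift to 1 end in both pairs, 0 of 62 reads and then 13 of 19 with the knockdown, and 6 of 35 and then 13 of 16 with the NT guide, none of them unique. In FBN1, the annotated transcript ENST00000316623.10 held 41 of 50 reads and then 0 of 4, and 28 of 28 and then 0 of 3 in the NT pair. This transcript had 28 unique reads in the untreated knockdown library. CCDC39, a ciliary protein, changed start: transcript ENST00000652010.1 had 39 of 39 reads without and 2 of 15 with azacytidine, and all 39 were unique. Both NT libraries had 0 reads of that transcript.

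Other large shifts differed in direction between the guides. PHACTR2, a regulator of protein phosphatase 1, used a start at chr6:143608180-143608185 in 0 of 46 reads and then 18 of 18, but in 11 of 43 and then 0 of 9 in the NT pair. MTMR1, a phosphoinositide phosphatase, had 16 of 17 reads on ENST00000445323.7 without and 0 of 26 with azacytidine in the knockdown pair. Its NT libraries were the other way round, 0 of 22 and 16 of 18. SRCAP, a chromatin remodeller, had 31 of 31 reads on ENST00000411466.7 and then 0 of 13, against 7 of 23 and then 11 of 12 with the NT guide. In these 3 genes, at most 3 reads of the named transcript in a library were unique. Of the 1074 called transcripts, 253 had no unique read in either library of the pair. Of the 429 with at least 10 unique reads, 411 changed in the same direction by unique reads alone. Unique reads are part of the reads that gave the calls, so this is not an independent check. When called on unique reads alone, 104 transcripts passed.

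AKAP12, a scaffold of protein kinase A, changed its end in the treated knockdown library only among the 4. The end at chr6:151358559 held 106 of 106 reads without azacytidine and 9 of 45 with it, against 97 of 97 and 68 of 68 in the NT pair. The end at chr6:151356773 held the other 36 reads, of which 4 were full-length and none was unique.

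Unannotated transcripts took a larger share of transcript reads with azacytidine. The share was 6.72% in the knockdown library and 8.97% with azacytidine added, against 7.08% and 7.97% in the NT pair. Among full-length reads alone it was 10.4% and 12.8%. The share of full-length reads itself rose from 23.3% to 31.2% in the knockdown pair, and its part in this change was not tested.

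The size of the azacytidine ratio was compared between the guides by an exact conditional test of the 4 read numbers of a gene. The ratio was higher in the knockdown pair for 191 genes (2.3%) and lower for 553 (6.67%). Of the 553, 366 had ratios of opposite sign in the 2 pairs, and 30 were called lower in both. PLCB4, a phospholipase of receptor signalling, had 935 reads in the knockdown library and 65 with azacytidine, against 103 and 142 in the NT pair (difference -4.12, exact test, adjusted p = 4.4e-59). TTN, the giant muscle protein titin, had 652 and 97, against 189 and 226. MTMR2, a phosphoinositide phosphatase, had 748 and 178, against 295 and 369, and the splicing factor CRNKL1 had 330 and 28, against 77 and 94. In all 4 genes the knockdown library without azacytidine held the highest level of the 4 libraries and the treated knockdown library the lowest. MALAT1, an abundant nuclear noncoding RNA, had 473 and 177 reads, a ratio of -0.92 that missed the size limit, against 361 and 570. TTN and MTMR2 overlap genes on the opposite strand, so their reads are uncertain to that extent. The same holds for other named genes, among them PAX6, ATF5, AARS1, CAMK2B, APAF1, SCN1A, UCK1, JAK1 and PRMT7. The gene opposite SCN1A, SCN1A-AS1, had 36 reads without and 0 with azacytidine in the knockdown pair. TTN also overlaps CCDC141 on its own strand, which had 4 and 0.

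The genes with the smallest p among those with the higher ratio in the knockdown pair were FBXO7, a ubiquitin ligase subunit, CLCC1, a chloride channel of the endoplasmic reticulum, JAK1, a cytokine receptor kinase, KIAA0408 and PRMT7, an arginine methyltransferase. FBXO7 had 137 and 259 reads, against 148 and 81 in the NT pair (difference 1.95, exact test, adjusted p = 6.6e-13). CLCC1 had 153 and 223, against 101 and 30. JAK1 had 57 and 97, against 109 and 29. CLCC1 overlaps GPSM2 on the opposite strand, which fell from 73 reads to 17, and strand use in counting is not given in the sources used here. PRMT7 had 95 and 153, against 178 and 79.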

How the data were processed

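Polyadenylated RNA was sequenced by PacBio Iso-Seq with MarathonRT first strands, per the labels' protocols. The authors deposited estimated counts per gene and per transcript. The column names, per the file headers, name minimap2 and hg38, and the annotation's source field names Bambu. The program versions are not given in the sources used here. Every deposited estimated count per gene was even, so counts were divided by 2 and rounded to reads. Of 392871 transcripts in the annotation, 10347 were unannotated.

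Libraries were scaled by TMM (edgeR 4.0.16, R 4.3.3) over the 4 libraries. Genes whose mean in the pair reached 20 reads were compared by two-sided exact binomial tests (scipy 1.17.1) with Benjamini-Hochberg adjustment. They were called at an adjusted p under 0.05 and a log2 ratio of at least 1 in size, with a pseudocount of 0.5. Shares were compared by Fisher's exact test where a gene had at least 2 transcripts and 20 reads on average and the unit at least 10 reads. Starts and ends within 100 bases were joined. Scripts were tested on simulated data. Alternatives included additive edgeR and DESeq2 1.42.0 models, other scalings, filters and uniquely assigned reads. Symbols were found for 8074 of the 8289 tested genes.

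CPM values were computed here from reads and effective library sizes, and the authors' CPM table was not used. The named genes are TARDBP, the 12 genes called in each direction with the interval farthest from 0, up to 6 called members of each list and members whose role the text needs, the usage units with the largest changes, all called loci, and 5 genes in each direction for the difference between guides. The members and the 19 pathway and 11 marker lists were chosen with earlier results of these data known, so no list was tested. A few genes that the rule names are not reported here.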

Additional observations from a re-analysis of the deposited data

Results flagged for a closer look

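The results below are genes covered by the naming rule, not all of them described in the report, whose azacytidine ratio differed between the guides by the exact conditional test. Each value is the log2 ratio in the knockdown pair minus that in the NT pair. The test compares reads of 4 libraries without replicates, and no explanation was tested.

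Lower in the knockdown pair among proliferation and repair genes were BARD1 by -5.75, MELK by -4.23, RRM2B by -4.02, ASPM by -3.62 and CLSPN by -3.60. Progenitor, matrix and methylation genes with a lower ratio were PROM1 at -3.19, VCAN at -2.40 and TET1 at -1.58. Neuronal genes with a lower ratio were GRIA1 at -4.36, CELF5 at -3.98, EPHA3 at -3.73, EPHA5 at -2.36, EPHA7 at -1.86, DLG2 at -1.84, SLIT2 at -1.59, MAP2 at -1.30, EFNA5 at -1.26 and NEFL at -1.03. The stress and death genes XPOT at -2.06, APAF1 at -1.69 and SEL1L at -1.68 were lower too. The genes with the smallest p were PLCB4 at -4.12, CRNKL1 at -3.65, TTN at -2.83, MTMR2 at -2.22 and MALAT1 at -1.90.

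A higher ratio in the knockdown pair was found for BCAS4 at 5.08, KIAA0408 at 3.34, ASNS at 3.09, ZGPAT at 2.98, JAK1 at 2.83, EXO5 at 2.54, CACNB2 at 2.52, CLCC1 at 2.45, JPT1 at 2.21, PRMT7 at 2.02, FBXO7 at 1.95, BEGAIN at 1.95 and CACNA1B at 1.24. Outside that rule, the report also names members that passed this test: RFC2 at 1.86, COL4A2 at 1.77, GRIK2 at -1.24, ROBO1 at -1.31, CEBPG at -1.34 and TET2 at -2.49. The values for BARD1 and BCAS4 rest on a library with 0 reads and depend on the pseudocount of 0.5.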

How the results depend on the processing

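No paired analysis was possible because every library carries replicate number 1, so that the number cannot serve as a block. The additive models use the guide as a term and give an azacytidine ratio shared by both guides, not that of the knockdown pair. The counts of calls moved most with the test and the reads used, and the cause was not tested. The 781 higher genes became 1278 with a mean of at least 5 reads, 280 with 50, 1201 with no filter, 1319 when counts were not halved, 131 from unique reads, 294 at an assumed coefficient of variation of 0.2, 208 in the additive edgeR model and 33 in the additive DESeq2 model. The 1467 lower genes became 2422, 614, 2244 (not halved), 356, 870, 541 and 212 under the same settings without the unfiltered one, which gave 2170. The 1074 transcripts became 104 from unique and 19 from full-length reads and 3722 when counts were not halved. In the same order the 618 starts became 64, 16 and 2069, the 366 ends 58, 6 and 1628, and 238 with a mean of 50, and the 12 loci 5, 3 and 64. The 191 genes with a higher ratio in the knockdown pair became 297 by total counts, 108 with a mean of 50, 656 not halved and 11 from unique reads. The 553 with a lower ratio became 348 with a mean of 50, 1272 not halved and 50 from unique reads.

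CLCC1 reversed to -0.0328 in the additive edgeR model and -0.126 in that of DESeq2, JAK1 to -0.0793 and -0.0873, and MTMR2 to 0.168 from unique reads. CLCC1 and JAK1 moved in opposite directions in the pairs, so a shared ratio near 0 follows from the form of the additive models. Of 103 named genes, the additive edgeR model kept the call of 61, 40 fell short and 2 reversed, and that of DESeq2 kept 36, with 65 short and 2 reversed. The 103 include genes named because their ratio differed between the guides, a difference that a shared ratio cannot hold. TARDBP was called under none of the settings run. Under total counts the medians of the unfolded protein response, DNA methylation and apoptosis lists turned positive, to 0.10, 0.01 and 0.11.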

Other observations

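Calls varied by chromosome along with gene span. Median ratios in the knockdown pair were highest on chromosomes 19 (0.31), 16 (0.27), 22 (0.26) and 17 (0.23) and lowest on chromosomes 4 (-0.49), 5 (-0.43) and 18 (-0.42). On chromosome 19, where the median span of tested genes was 27484 bases, 21.4% of genes were higher, and on chromosome 18, where it was 88241 bases, 29.1% were lower. These are descriptions of 1 pair of libraries, with no test.

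Of 5 histone genes tested, 2 were higher and none lower, against 9.42% and 17.7% of all genes, with a median of 0.47. H3-3B, a replication-independent histone gene, rose from 109 reads to 171, and had 122 and 208 in the NT pair. Its ratio of 1.15 fell to 0.90 with the length trend removed, under the limit for a call.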
